A study of Homo sapiens with 12 samples.

Results

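The genes described here are 9 genes known as transcriptional targets of the tumour suppressor p53, among them both death receptors FAS and TNFRSF10B. The others are MDM2, SESN1, SESN2, TP53INP1, BTG2, GADD45A and ZMAT3. They were chosen by symbol, and every probe set whose only annotated symbol was one of these names was taken. This gave 25 probe sets, out of 45253 with a single symbol, for 8 of the 9 genes. Levels of BTG2 were not analysed here. Of 18239 genes with a probe set, 15173 passed the filter on level (a log2 level of at least 5 on at least 3 arrays), and all 8 measured genes were among them.

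RNA levels were measured on 12 Affymetrix arrays of the human multiple myeloma lines ARP1, JJN3 and RPMI-8226, with 1 array per line and treatment. Multiple myeloma is a cancer of plasma cells. Each line was sampled at 6 h after all 3 drugs together (Combo), after lenalidomide at 5 µM with dexamethasone at 0.05 µM (LenDex), after the BET bromodomain inhibitor CPI203 at 0.01 µM, and without drug (control). CPI203 keeps BET proteins off acetylated chromatin, lenalidomide redirects the cereblon ubiquitin ligase, and dexamethasone activates the glucocorticoid receptor. The effects of lenalidomide and of dexamethasone cannot be told apart, since no arm held 1 of them. Combo held the same doses of the single arms.

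The transcription factor p53 is held low by the ubiquitin ligase MDM2, which is itself a p53 target, so that the pair forms a feedback loop. When p53 is freed from MDM2, its targets slow the cell cycle, repair DNA, restrain growth signalling and sensitise cells to death signals. FAS and TNFRSF10B (the TRAIL receptor DR5) sit at the cell surface and recruit FADD and caspase-8 when their ligands bind. Several of these genes also answer to other factors: SESN2 and TNFRSF10B are targets of the ATF4 and CHOP stress response, and SESN1 and TP53INP1 are FOXO targets. RPMI-8226 is known to carry mutant p53, and the p53 status of ARP1 and JJN3 is not given here. Neither p53 protein nor its activity was measured on these arrays.

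The promoter windows below are shown because 4 of the genes differ in how closely their start regions match the p53 consensus, which is a pair of ten-letter half-sites read here without a spacer. Each window runs from 250 bases before to 50 bases after an annotated start and was taken from RefSeq (GRCh38.p14). Where a gene had several windows (4 for MDM2, 3 each for FAS and SESN1, 1 for SESN2) the first with the closest match is printed. Capitals mark stretches that match at least 17 of 20 consensus positions, or the closest match of 15 of 20 in SESN2.
MDM2, chr12:68808767-68809066, plus strand: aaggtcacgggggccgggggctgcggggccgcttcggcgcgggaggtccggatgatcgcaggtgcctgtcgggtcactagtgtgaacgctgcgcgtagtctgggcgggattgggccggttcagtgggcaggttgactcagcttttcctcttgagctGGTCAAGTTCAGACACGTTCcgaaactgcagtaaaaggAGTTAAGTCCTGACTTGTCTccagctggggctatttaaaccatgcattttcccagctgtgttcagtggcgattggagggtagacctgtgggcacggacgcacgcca
FAS, chr10:88991181-88991480, plus strand: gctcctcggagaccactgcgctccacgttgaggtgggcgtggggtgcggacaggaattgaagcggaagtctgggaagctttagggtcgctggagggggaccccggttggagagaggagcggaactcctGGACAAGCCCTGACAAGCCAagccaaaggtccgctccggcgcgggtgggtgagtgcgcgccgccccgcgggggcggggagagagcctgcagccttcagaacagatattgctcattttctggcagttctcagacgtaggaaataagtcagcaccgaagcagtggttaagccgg
SESN1, chr6:109008939-109009238, minus strand: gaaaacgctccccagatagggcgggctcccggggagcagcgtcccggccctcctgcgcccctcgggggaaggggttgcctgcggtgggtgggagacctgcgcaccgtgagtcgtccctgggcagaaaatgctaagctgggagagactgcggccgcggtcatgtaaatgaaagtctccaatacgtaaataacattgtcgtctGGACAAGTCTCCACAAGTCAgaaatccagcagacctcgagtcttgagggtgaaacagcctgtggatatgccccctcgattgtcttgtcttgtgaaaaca
SESN2, chr1:28259268-28259567, plus strand: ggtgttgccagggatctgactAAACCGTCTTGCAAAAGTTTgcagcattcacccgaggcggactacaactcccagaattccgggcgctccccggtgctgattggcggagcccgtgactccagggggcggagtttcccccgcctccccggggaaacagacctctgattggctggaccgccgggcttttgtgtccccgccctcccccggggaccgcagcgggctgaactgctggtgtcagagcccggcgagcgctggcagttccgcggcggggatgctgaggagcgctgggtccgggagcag

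The MDM2 window held a match of 18 of 20 (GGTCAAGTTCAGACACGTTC) and another of 17 (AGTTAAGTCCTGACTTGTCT), the FAS window one of 18 (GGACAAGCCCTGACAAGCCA) and the SESN1 window one of 17 (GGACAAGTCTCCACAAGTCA). Among 35116 windows of the same length, read on both strands, 0.649% held a match of at least 18 and 5.2% one of at least 17. The closest match in the SESN2 window (AAACCGTCTTGCAAAAGTTT) reached 15, as 70.5% of all windows did. The closest windows of ZMAT3 and BTG2 reached 16, which 26.0% of windows reached. A half-site matched at all 10 positions was found for FAS and SESN1, as in 6.63% of windows. The stress-response motif TGATGNAAT (0.991% of windows) and the forkhead motif TGTTTAC (3.42%) were found in no window of these 6 genes. AGAACA, the core of a glucocorticoid receptor half-site, lay in a window of FAS and of no other gene of the 6, and in 14.8% of windows. These letter matches are a description and are no measure of binding.

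The labelled lines were checked against lineage markers. On ARP1 arrays the plasma cell genes SDC1 (syndecan-1) and PRDM1 averaged 12.03 and 11.31 and the B cell gene MS4A1 4.95 on the log2 scale. On JJN3 and RPMI-8226 arrays SDC1 lay at 5.38 and 5.19 and PRDM1 at 5.43 and 5.38, close to the array medians, and MS4A1 at 11.73 and 11.71. The plasma cell list as a whole had per-array medians of 11.56 to 11.75 in ARP1, where 10 of its 10 genes averaged over 6. JJN3 arrays had medians of 7.32 to 9.54, with 8 of the 10 over 6, and RPMI-8226 arrays 6.73 to 8.63, with 6 of the 10. The B cell list had medians of 5.00 to 5.46, 7.11 to 8.17 and 7.22 to 8.48 in the same order of lines. JJN3 and RPMI-8226 arrays also resembled each other (r = 0.966 to 0.982 across genes) more than either resembled ARP1 (0.891 to 0.909), and arrays of 1 line correlated at 0.977 to 0.993. The 2 labels may therefore not stand for independent lines, and the lines are called below by their labels. The JJN3 control array stood apart in IGKC, at 9.32, the highest of the 4 JJN3 arrays, which began at 5.11. Medians of T cell, monocyte and fibroblast marker lists lay between 4.83 and 5.36, close to the array medians of 5.304 to 5.375, while the epithelial list reached 5.91 to 7.17 on JJN3 arrays. The part of any of this in the results was not tested.

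On the probe set of each gene with the highest mean, levels separated ARP1 from the other lines in all 8 genes. Over the 4 arrays of a line, FAS averaged 5.16 ± 0.23 for ARP1, 10.69 ± 0.42 for JJN3 and 10.26 ± 0.40 for RPMI-8226 (log2 level, SD, n = 4, treatments included). TNFRSF10B averaged 6.27 ± 0.26, 11.35 ± 0.34 and 11.24 ± 0.38 in the same order of lines, so both death receptor transcripts were near the array median or little above it in ARP1 and abundant in the others. MDM2 was lowest in ARP1 (7.92 ± 0.25, against 9.40 ± 0.37 in JJN3 and 9.05 ± 0.37 in RPMI-8226), as were SESN2 (8.09 ± 0.36, 10.17 ± 0.31 and 10.76 ± 0.41), GADD45A (10.38 ± 0.07, 12.10 ± 0.19 and 11.51 ± 0.31) and ZMAT3 (6.98 ± 0.19, 9.32 ± 0.23 and 8.43 ± 0.10). The reverse held for SESN1, at 9.84 ± 0.78 for ARP1, 6.70 ± 0.47 for JJN3 and 6.46 ± 0.96 for RPMI-8226, and for TP53INP1, at 9.25 ± 0.58, 6.32 ± 0.40 and 6.30 ± 0.34. On these probe sets the ranges of JJN3 and RPMI-8226 overlapped for every gene except GADD45A and ZMAT3, and the range of ARP1 overlapped neither in any gene. Some lower probe sets did overlap. One of MDM2 had 5.43 to 6.48 in ARP1 and 6.15 to 7.25 in JJN3. The second of TP53INP1 had 4.99 to 5.26 in ARP1 and 4.94 to 5.10 in RPMI-8226. The share of all genes that separate in these ways was not counted. ARP1 arrays differed from the others across genes (r = 0.891 to 0.909), so this separation is no result about the set.

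**Figure D1:**
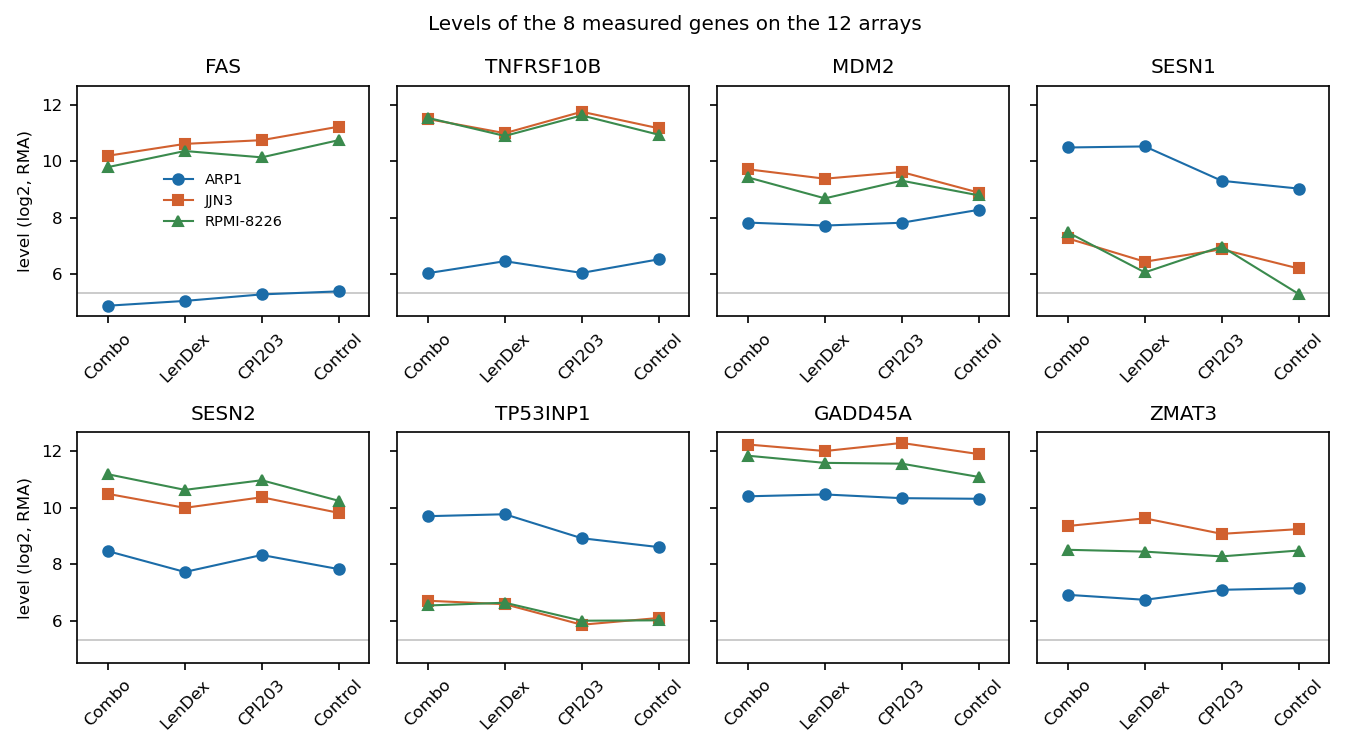
Log2 level (vertical axis) of the representative probe set of each of the 8 genes in Combo, LenDex, CPI203 and control cells (horizontal axis), 1 point per array and 1 line of points per cell line, with the range of array medians shaded. FAS in ARP1 lies at 4.90 to 5.40, close to the shaded band, while SESN1 and TP53INP1 are highest in ARP1.

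Treatment effects were read first as average effects, the mean difference between the 6 arrays with a drug and the 6 without it at both levels of the other drug, in a limma fit with the line as a block. A gene was called at a Benjamini-Hochberg adjusted p under 0.05 over all 15173 genes. Each p measures the spread between these 3 lines, and with 1 array per line and treatment no culture was repeated. SESN2 rose and FAS fell with CPI203, TP53INP1 rose and FAS fell with LenDex, and under Combo SESN1 joined SESN2 and TP53INP1 among the genes that rose. The CPI203 average effect called 2 of the 8 genes, 1 higher and 1 lower, where 7.28% of all genes were called, 3.3% higher and 3.99% lower. The LenDex average effect also called 1 higher and 1 lower, where 4.25% of all genes were called, 1.73% higher and 2.52% lower. Combo against control called 4, 3 of them higher and 1 lower, where 9.15% of genes were called, 3.55% higher and 5.6% lower. The median effect over the 8 genes was 0.23 for CPI203, 0.10 for LenDex and 0.36 for Combo, against 0.00, 0.01 and 0.01 over all genes. The average effects and the comparisons with control share arrays, so they are not independent of each other.

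FAS, whose ligation starts apoptosis through caspase-8, was lowest under Combo in every line. In JJN3 its log2 level was 10.19 in Combo, 10.61 in LenDex, 10.74 in CPI203 and 11.22 in control cells. RPMI-8226 had 9.79, 10.36, 10.13 and 10.74 in the same order of treatments. ARP1 had 4.90, 5.06, 5.29 and 5.40, which is near or below the array medians, so the ARP1 values sit where the arrays show little signal. Control was the highest array of each line. FAS fell with CPI203 by 0.39 ± 0.09 on the log2 scale (SE; 1.31-fold lower, limma adjusted p = 0.0330), with line effects of -0.14 for ARP1, -0.45 for JJN3 and -0.59 for RPMI-8226. It fell with LenDex by 0.44 ± 0.09 (1.35-fold, adjusted p = 0.0280), with line effects of -0.37, -0.58 and -0.36. Under Combo it fell by 0.83 ± 0.13 against control (1.77-fold lower, adjusted p = 0.00736), and the departure from additivity was 0.01 ± 0.18. In bulk RNA, a fall in cells that express a gene and less RNA per cell cannot be told apart. The second FAS probe set had lower values with both drugs (-0.32 and -0.35) but was not called, and its LenDex effect came from JJN3 and RPMI-8226, where it was -0.41 and -0.68, against 0.02 in ARP1. Of probe sets tested singly, 4.83% were called for CPI203 and 3.26% for LenDex.

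TNFRSF10B, the death receptor for TRAIL, had CPI203 effects of opposite sign in ARP1 and in the other lines. JJN3 had log2 levels of 11.49 in Combo, 10.99 in LenDex, 11.75 in CPI203 and 11.16 in control cells. RPMI-8226 had 11.53, 10.89, 11.62 and 10.94. ARP1, at a lower level, had 6.05, 6.47, 6.05 and 6.53. In JJN3 and RPMI-8226 both arrays with CPI203 were above both arrays without it, and in ARP1 both were below. The effects were -0.45 for ARP1, 0.54 for JJN3 and 0.66 for RPMI-8226, so the average of 0.25 ± 0.17 was not called (adjusted p = 0.431). The limma F test of a difference between lines gave an adjusted p of 0.0542 and was not called. Under other settings that p was 0.04996 with no level filter, 0.0312 at a mean level of at least 6 and 8.58e-05 with trended robust moderation, all past the threshold, and up to 0.152 without the JJN3 control array. At the settings used throughout, the test called 0 of the 8 genes, where 0.323% of genes were called, and 4 of the 8 and 2237 of all genes had an unadjusted p under 0.05. All 3 probe sets of TNFRSF10B had positive average effects, and 1 was called when tested singly (0.67, adjusted p = 0.0487). In ARP1, however, the other two probe sets lay near the array medians, with effects of -0.28 and 0.09, so the negative sign there was not common to all 3. LenDex had no called effect (-0.11 ± 0.17, adjusted p = 0.805).

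MDM2, the ligase that degrades p53, had positive CPI203 effects in JJN3 and RPMI-8226 and a negative mean effect in ARP1. Its log2 levels in JJN3 were 9.71 in Combo, 9.38 in LenDex, 9.62 in CPI203 and 8.89 in control cells. The RPMI-8226 arrays gave 9.43, 8.69, 9.31 and 8.79. Those of ARP1 gave 7.83, 7.73, 7.82 and 8.28, with control the highest. In ARP1 the pairs disagreed, at -0.46 for CPI203 against control and 0.10 for Combo against LenDex. The CPI203 effects were -0.18 for ARP1, 0.53 for JJN3 and 0.63 for RPMI-8226, the average of 0.33 ± 0.16 was not called (adjusted p = 0.252), and neither was the difference between lines (adjusted p = 0.269). MDM2 had 11 probe sets, and 10 of them had a positive CPI203 average effect, over a range of -0.05 to 0.61, with none called. Under Combo all 11 were higher than control in the mean over lines, and 1 was called. In ARP1 their Combo differences ran from -1.06 to 0.17. The share of all probe sets called under Combo was not counted. Probe sets of 1 gene are not independent measurements. LenDex left an average of 0.01 ± 0.16 (adjusted p = 0.987) on the representative probe set. Of the 11 probe sets, 10 had a positive LenDex average effect, over a range of -0.01 to 0.40, with none called. MDM4, a paralog that also restrains p53, had an effect of -0.19 ± 0.08 with CPI203 (adjusted p = 0.192) and 0.10 ± 0.08 with LenDex (adjusted p = 0.560).

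**Figure D2:**
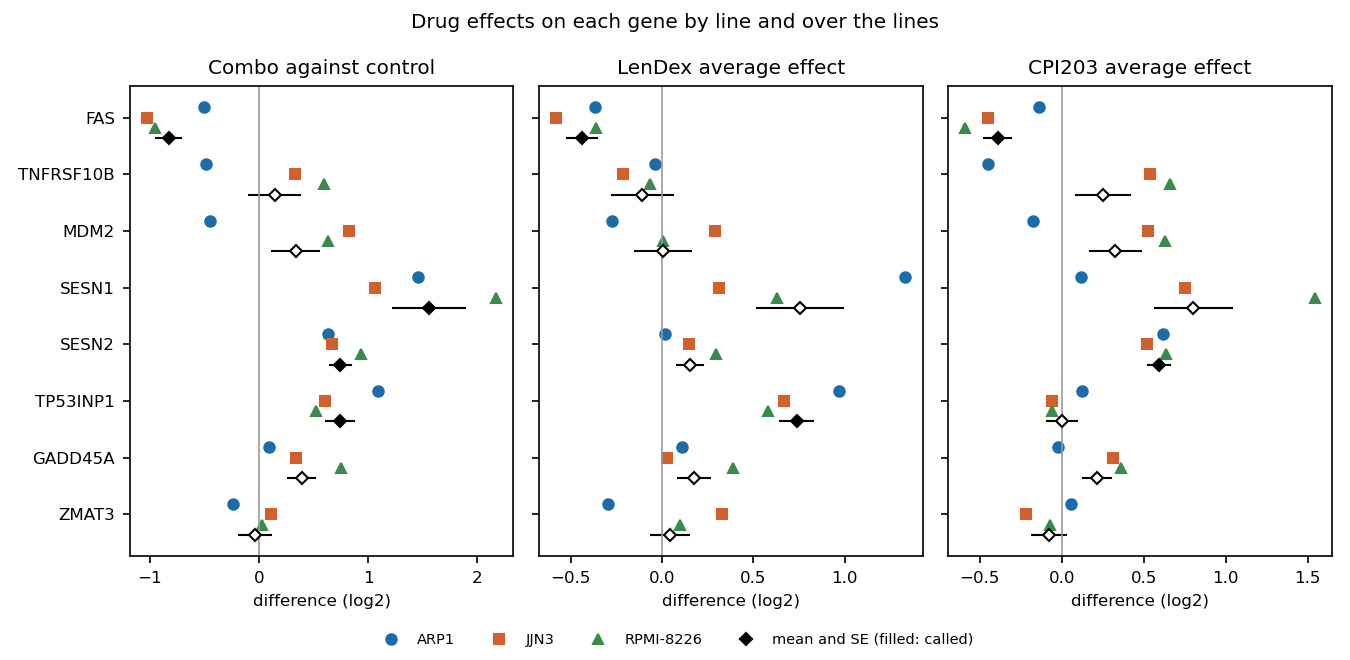
Difference in log2 level (horizontal axis) for each of the 8 genes under Combo against control and as LenDex and CPI203 average effects, with a point per line and the mean over lines with its standard error. TNFRSF10B and MDM2 split by line under CPI203 (-0.45 and -0.18 in ARP1, against 0.66 and 0.63 in RPMI-8226), while SESN2 lies between 0.52 and 0.64 in all 3 lines.

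SESN2, a leucine sensor that holds mTORC1 in check, gave CPI203 effects of similar size in the 3 lines on its representative probe set. ARP1 had log2 levels of 8.46 in Combo, 7.73 in LenDex, 8.33 in CPI203 and 7.83 in control cells. JJN3 had 10.49, 9.99, 10.37 and 9.82, and RPMI-8226 had 11.18, 10.63, 10.97 and 10.24. On this probe set both arrays with CPI203 lay above both without it in each line. On the second, ARP1 had 6.95, 6.32, 6.235 and 6.16 in the same order of treatments, so CPI203 alone lay below LenDex. The CPI203 effects of that second probe set were 0.35 for ARP1, 0.77 for JJN3 and 0.67 for RPMI-8226. SESN2 rose by 0.59 ± 0.07 with CPI203 (1.51-fold, adjusted p = 0.00956), with 0.62, 0.52 and 0.64 in the 3 lines, and both of its probe sets were called. The LenDex effect was 0.15 ± 0.07 (adjusted p = 0.303), and Combo was 0.75 ± 0.11 above control (1.68-fold, adjusted p = 0.00574). The promoter window of SESN2 is the one printed above whose closest p53 match was shared by most windows. Whether this bears on the rise with CPI203 was not tested.

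SESN1, like SESN2 a p53 target and an mTORC1 inhibitor, had the largest Combo difference of the 8 genes. ARP1 had 10.48 in Combo, 10.52 in LenDex, 9.31 in CPI203 and 9.03 in control cells. JJN3 had 7.27, 6.45, 6.89 and 6.21, and RPMI-8226 had 7.48, 6.07, 6.99 and 5.31. Arrays with LenDex were the high ones in ARP1, and arrays with CPI203 were the high ones in JJN3 and RPMI-8226. Combo exceeded control by 1.56 ± 0.34 (2.95-fold, adjusted p = 0.0226), with 1.45 for ARP1, 1.06 for JJN3 and 2.17 for RPMI-8226. The CPI203 average was 0.80 ± 0.24 (adjusted p = 0.0718), from 0.12 in ARP1 to 0.75 in JJN3 and 1.54 in RPMI-8226. The LenDex average was 0.76 ± 0.24 (adjusted p = 0.112), from 1.33 in ARP1 to 0.31 in JJN3 and 0.63 in RPMI-8226. Neither difference between lines was called (adjusted p = 0.0652 for CPI203 and 0.136 for LenDex). Both SESN1 probe sets were called for Combo. The second had CPI203 effects of -0.06 for ARP1, 0.65 for JJN3 and 0.71 for RPMI-8226, and a Combo difference of 1.21 in RPMI-8226. The RPMI-8226 control value of 5.31 lay close to the median of that array, 5.304, where the arrays show little signal.

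TP53INP1, a p53-induced nuclear protein with roles in autophagy and cell death, rose with LenDex and had no called CPI203 effect. Its log2 levels in ARP1 were 9.70 in Combo, 9.77 in LenDex, 8.92 in CPI203 and 8.61 in control cells. In JJN3 they were 6.71, 6.59, 5.87 and 6.10, and in RPMI-8226 6.55, 6.64, 6.01 and 6.02. Both arrays with LenDex were above both without it in each line. TP53INP1 rose by 0.74 ± 0.10 with LenDex (1.67-fold, adjusted p = 0.00680), with 0.97 for ARP1, 0.67 for JJN3 and 0.58 for RPMI-8226. The CPI203 effect was 0.00 ± 0.10 (adjusted p = 0.992), and Combo stood 0.74 ± 0.13 above control (adjusted p = 0.0133). A second TP53INP1 probe set lay between 4.86 and 5.26 on all 12 arrays, at about the array medians, and had no called effect (0.00 with LenDex).

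GADD45A, a growth-arrest and DNA-damage gene, had no called effect. JJN3 had 12.231 in Combo, 12.001 in LenDex, 12.29 in CPI203 and 11.89 in control cells, RPMI-8226 had 11.83, 11.58, 11.55 and 11.09, and ARP1 had 10.40, 10.47, 10.34 and 10.31. Control was the lowest array of each line. The averages were 0.22 ± 0.09 with CPI203 (adjusted p = 0.190) and 0.17 ± 0.09 with LenDex (adjusted p = 0.351), and Combo was 0.39 ± 0.13 above control (adjusted p = 0.0969).

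ZMAT3, an RNA-binding zinc finger protein, was not called in any comparison. Its log2 levels in JJN3 were 9.35 in Combo, 9.62 in LenDex, 9.08 in CPI203 and 9.24 in control cells. RPMI-8226 had 8.51, 8.45, 8.28 and 8.49, and ARP1 had 6.92, 6.75, 7.10 and 7.16. Its LenDex effects were -0.29 for ARP1, 0.33 for JJN3 and 0.10 for RPMI-8226, with a line-difference adjusted p of 0.296. That test called 0 of the 8 genes for LenDex, where 0.369% of genes were called, and 2 of the 8 and 2071 of all genes had an unadjusted p under 0.05. The averages were -0.08 ± 0.11 with CPI203 (adjusted p = 0.741) and 0.04 ± 0.11 with LenDex (adjusted p = 0.880). A second ZMAT3 probe set had LenDex effects of -0.04 for ARP1, 0.13 for JJN3 and -0.31 for RPMI-8226, and no called effect.

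**Figure D3:**
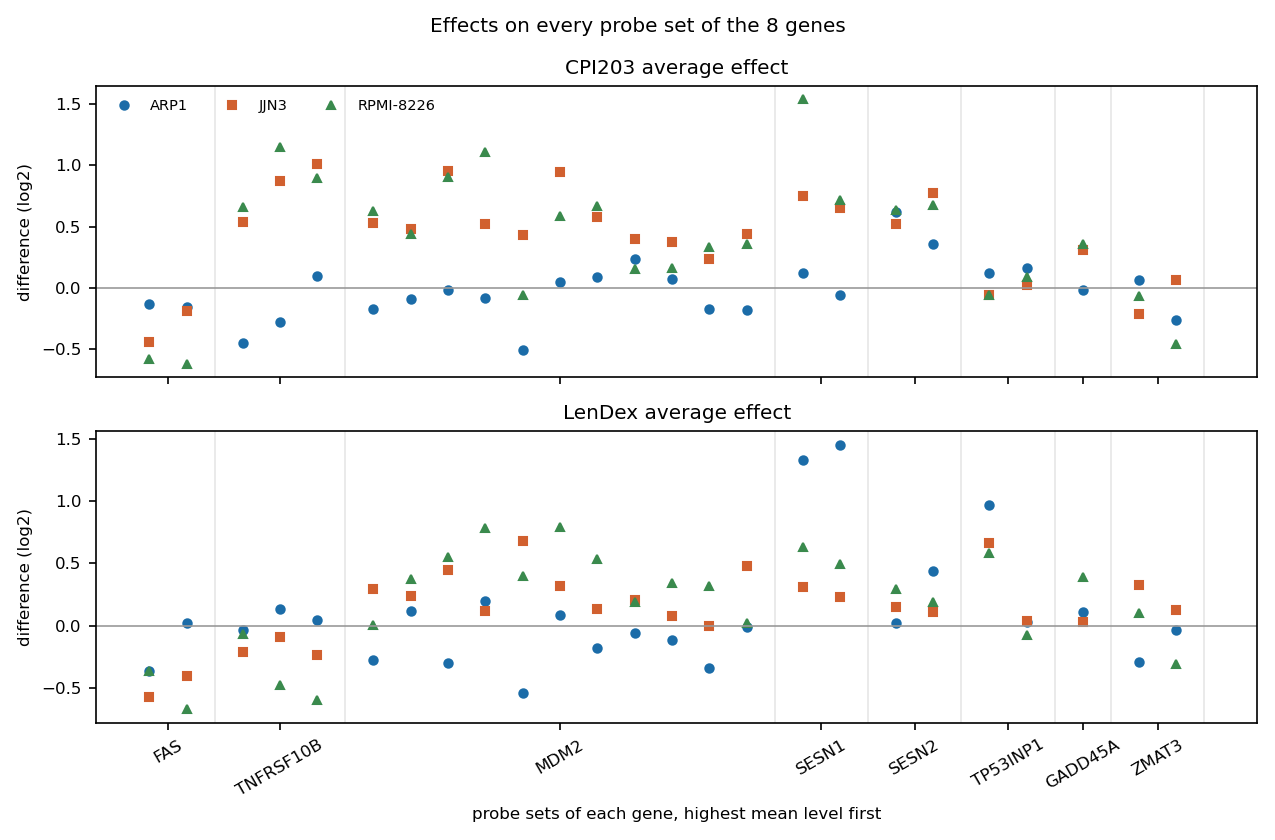
CPI203 and LenDex average effects (log2 difference, vertical axis) of each of the 25 probe sets, with 1 point per line, grouped by gene and ordered from the highest mean level, so that the representative probe set comes first. TNFRSF10B has positive CPI203 effects on all 3 probe sets in JJN3 and RPMI-8226, and the second TP53INP1 probe set lies near 0 under LenDex where the first lies at 0.58 to 0.97.

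Against control, each drug alone called none of the 8 genes in limma. For CPI203 alone 0 of 8 were called where 0.00659% of all genes were, with 4 of 8 and 2456 of all genes at an unadjusted p under 0.05, and SESN2 came closest (0.59, adjusted p = 0.0806). For LenDex alone 0 of 8 were called where 0.461% of genes were, with 3 of 8 and 2079 of all genes at an unadjusted p under 0.05, and TP53INP1 came closest (0.76, adjusted p = 0.0515). The interaction, the departure of Combo from the sum of both arms on the log2 scale, called 0 of 8 and 0 of all 15173 genes, with 0 of 8 and 472 of all genes at an unadjusted p under 0.05. Its estimates ran from -0.16 in GADD45A to 0.13 in ZMAT3.

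The number of calls depended on which lines were in the fit. Without ARP1, CPI203 called 5 of the 8 genes where 15.8% of genes were called. These were MDM2 (0.58, adjusted p = 0.0149), TNFRSF10B (0.60, adjusted p = 0.00475), SESN1 (1.15, adjusted p = 0.00758), SESN2 (0.58, adjusted p = 0.00541) and FAS (-0.52, adjusted p = 0.0103). LenDex still called TP53INP1 (0.62) and FAS (-0.47), where 6.05% were called, and Combo called 7, all but ZMAT3, where 14.6% were. CPI203 alone then called TNFRSF10B, SESN1 and SESN2, where 6.69% were called, and LenDex alone called 0 in limma, where 1.96% were. Without JJN3, without RPMI-8226, or with the arrays of these lines averaged as 1 line, no gene of the set was called in either average effect or under Combo. Of all 15173 genes these fits called 0 for CPI203, 2 to 5 for LenDex and 0 to 3 for Combo, so the absence of calls is not particular to the set. Without the JJN3 control array, CPI203 called 1 gene (SESN2), LenDex 1 (TP53INP1) and Combo 3 (FAS, SESN2 and TP53INP1), where 0.778%, 1.56% and 1.98% of all genes were called, so that FAS lost both average calls and SESN1 its Combo call. Effects called with all 3 lines in the fit kept their direction in all of these fits. TNFRSF10B under Combo, called without ARP1 (0.46), was -0.081 without RPMI-8226 and -0.0144 with the averaged arrays.

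CDKN1A, which encodes the cell cycle inhibitor p21 and is the best-known p53 target outside the set, also had CPI203 effects of opposite sign in ARP1 and the other lines. JJN3 had log2 levels of 11.64 in Combo, 10.90 in LenDex, 11.41 in CPI203 and 10.59 in control cells, and RPMI-8226 had 11.69, 10.93, 11.44 and 10.22. ARP1 had 7.69, 8.09, 5.37 and 7.18, with CPI203 alone the lowest. The CPI203 average was 0.22 ± 0.38 (adjusted p = 0.795), the lines ran from -1.10 in ARP1 to 0.78 in JJN3 and 0.99 in RPMI-8226, and the line difference was not called (adjusted p = 0.134). The LenDex average was 0.79 ± 0.38 (adjusted p = 0.305). The gene of p53 itself was not analysed here.

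Other p53 targets held calls in both directions. Of 39 tested of 41 listed, 3 rose and 3 fell with CPI203, where 3.3% of all genes were called higher and 3.99% lower, with a median of 0.10 against 0.00 over all genes. POLH, a translesion DNA polymerase, rose by 0.57 (adjusted p = 0.0291), as did TP53I3 (0.46) and the repair gene XPC (0.40). TRIM22 fell by 0.55, the nuclease gene AEN by 0.54 and TRIAP1 by 0.40. With LenDex 3 rose and 1 fell, where 1.73% of all genes were called higher and 2.52% lower, with a median of -0.02 against 0.01. BBC3, which encodes the BH3-only protein PUMA, rose by 0.77 (adjusted p = 0.00869), TP53I3 by 0.58 and DDB2 by 0.44, and TIGAR fell by 0.60. Among 14 tested of 15 p53 regulators, the deacetylase gene SIRT1 rose with CPI203 (0.66, adjusted p = 0.0143) and none fell, with a median of 0.00. With LenDex none of the 14 was called in limma (median -0.03), and the smallest p belonged to HIPK2 (0.62, adjusted p = 0.0923) and USP7 (-0.21, adjusted p = 0.132).

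The death receptor pathway list, which holds ligands, other receptors, adaptors, caspases and their inhibitors, had 1 call per drug among 17 tested of 21 listed genes. Of all genes 7.28% were called with CPI203 and 4.25% with LenDex, so 1 of 17 is no result about the list. CASP8, the initiator caspase that both receptors recruit, fell by 0.43 with CPI203 (adjusted p = 0.0294), and the list median was -0.06 against 0.00 over all genes. CFLAR, whose product c-FLIP blocks caspase-8 at the receptors, rose by 1.19 with LenDex (adjusted p = 0.0143), with 1.996 for ARP1, 0.73 for JJN3 and 0.85 for RPMI-8226, and its line difference was called (adjusted p = 0.0456). The list median under LenDex was -0.02 against 0.01. Without the JJN3 control array the average effect of CASP8 was not called and that of CFLAR was. The LenDex line difference then called 0 of all 15173 genes, so that of CFLAR was lost.

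Among paralogs of the 9 genes, 2 rose with CPI203 and 1 fell with LenDex, where 3.3% of all genes were called higher with CPI203 and 2.52% lower with LenDex. Of 11 tested of 14 listed, GADD45B rose by 1.05 (adjusted p = 0.0191) and TOB1, a BTG family member that slows proliferation, by 1.06 (adjusted p = 0.0225) with CPI203, and none fell (median 0.10). With LenDex BTG3 fell by 0.57 (adjusted p = 0.0383) and none rose (median -0.03). In the integrated stress response list, 18 tested of 19, ATF3 (1.22), PPP1R15A (0.86) and ASNS (0.37) rose with CPI203 while STC2 fell by 0.81 and XPOT by 0.37, with a median of -0.01 and against the same 3.3% higher and 3.99% lower over all genes. DDIT4, an mTORC1 inhibitor, rose with LenDex (1.54) while the cystine transporter gene SLC7A11 fell by 0.56 (median -0.09). Of all genes 1.73% were called higher and 2.52% lower with LenDex.

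The growth-restraint and FOXO-related list had 13 genes tested of 14. Like the other lists it was chosen with earlier results of these data known, so its counts and median are a description only. With LenDex 4 of the 13 rose and none fell, where 1.73% of all genes were called higher and 2.52% lower. The other 9 were not called, with CITED2 at -0.35, and the median was 0.35 against 0.01 over all genes. TSC22D3, the glucocorticoid-induced leucine zipper gene, rose by 3.58 (adjusted p = 2.24e-04), KLF6 by 1.32, TRIB1 by 0.96 and TXNIP by 0.89. With CPI203 TXNIP (0.72) and CITED2 (0.65) rose and none fell (median 0.01). Without the JJN3 control array the count of other p53 targets called with CPI203 dropped to 0, that of paralogs with CPI203 to 0, that of stress response genes with CPI203 to 1 (STC2), that of other p53 targets with LenDex to 2 (BBC3 and TIGAR) and that of the growth-restraint list with LenDex to 3. Of all genes 0.778% were called with CPI203 and 1.56% with LenDex in that fit, so these counts dropped along with the calls over all genes. With JJN3 and RPMI-8226 arrays averaged as 1 line, TSC22D3 with LenDex was the 1 gene of the 6 lists still called, and 0 and 4 of all 15173 genes were called for CPI203 and LenDex.

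**Figure D4:**
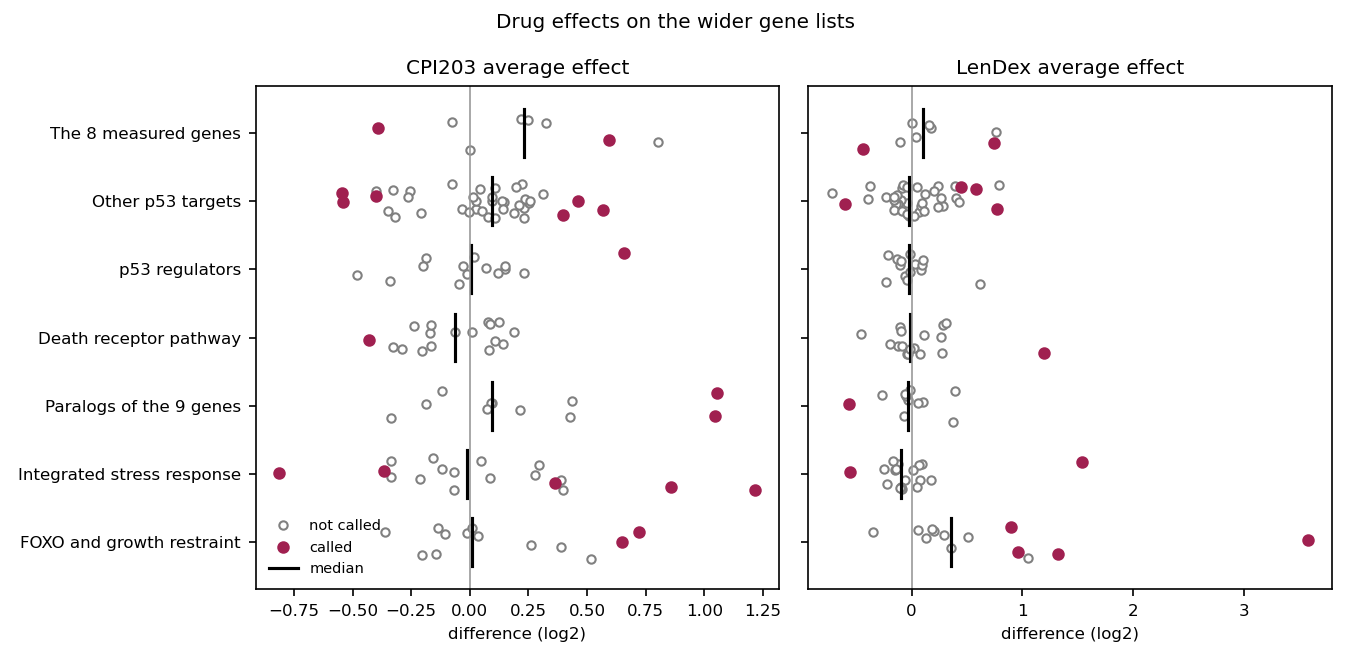
CPI203 and LenDex average effects (log2 difference, horizontal axis) of every tested gene of the 9-gene set and of the 6 wider lists, 1 point per gene with called genes filled and the list median as a bar. The growth-restraint list under LenDex has a median of 0.35, and the list medians under CPI203 other than that of the 9-gene set lie between -0.06 and 0.10.

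The genes whose array-to-array pattern was nearest to that of a called gene were found by Pearson's r over the 12 arrays after each line mean was removed, as a description. For FAS these were MRPL36 (0.983), POLR1B (0.981) and ISG20L2 (0.979). For SESN2 they were BRD8 (0.959), BMAL1 (0.953) and TBRG1 (0.952). TP53INP1 was followed most closely by ATP11B (0.973), TSC22D3 (0.964) and ZNF75D (0.964). All points share the 4 treatments and 3 lines, so these values say nothing of shared control.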

How the data were processed

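Levels were measured on Affymetrix arrays with biotinylated cRNA from 150 ng of total RNA, per the labels' protocols. The submitters' processing notes name RMA and Affymetrix Expression Console 1.1 for the authors' deposited table, whose range of values shows a log2 scale. RMA gives arrays a common distribution, so a shift of all transcripts would not be seen. A joint normalisation of all 12 arrays is not given in the sources used here. There are no counts, so precision rests on the number of arrays, and no detection calls were used.

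Of 49386 probe sets, 93 were controls, 45253 had 1 symbol in the platform annotation, 1327 several and 2713 none, and 45172 of those with 1 symbol matched RefSeq (GRCh38.p14). A gene was represented by its probe set with the highest mean. Genes reaching 5 (log2) on 3 or more arrays were tested with limma 3.58.1 (R 4.3.3): line and group as terms over 12 arrays (6 residual degrees of freedom), eBayes, two-sided, Benjamini-Hochberg over 15173 genes, called at an adjusted p under 0.05. Differences between lines used a moderated F test of line-by-drug terms with additive drugs (3 residual degrees of freedom). The fits were tested on simulated data.

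The line is the block because a treatment series comes from 1 line. Deviations of arrays from group means correlated at 0.905 to 0.938 within ARP1, 0.820 to 0.884 within JJN3 and 0.831 to 0.888 within RPMI-8226.

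The 9 genes and the lists (p53 regulators, other p53 targets, death receptor pathway, paralogs, integrated stress response, FOXO and growth restraint, lineage markers) were chosen with earlier results of these data known. All 9 genes, CDKN1A and MDM4 were always to be named. From each list, up to 4 called genes with the largest change in each average effect were named, or the 2 of smallest p where none was called. XPC, TRIAP1 and ASNS lie outside that rule and were added after their values were seen. The 3 genes most like each called gene were also named. Some genes are on more than 1 list. Alternatives covered the level filter, the choice of probe set, normalisation, moderation, the block and the arrays used. Promoter windows came from a RefSeq table. No window was used for GADD45A, TNFRSF10B and TP53INP1.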

Additional observations from a re-analysis of the deposited data

Results flagged for a closer look

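TNFRSF10B was singled out because both ARP1 pairs of arrays moved one way with CPI203 and all JJN3 and RPMI-8226 pairs the other way. The effect was -0.45 in ARP1 (pairs -0.48 and -0.42), 0.54 in JJN3 (0.58 and 0.50) and 0.66 in RPMI-8226 (0.68 and 0.64). The test of the difference between lines gave a limma adjusted p of 0.0542, which missed the threshold. The threshold was passed with no level filter (0.04996), at a mean level of at least 6 (0.0312) and with trended robust moderation (8.58e-05), which called 4.44% of all genes, and missed in the other alternatives, with 0.152 without the JJN3 control array as the highest.

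ZMAT3 was singled out because its LenDex effect was negative in both ARP1 pairs and positive in both JJN3 pairs. It was -0.29 in ARP1 (pairs -0.41 and -0.18) and 0.33 in JJN3 (0.38 and 0.28). The test over all 3 lines gave an adjusted p of 0.296. On a second ZMAT3 probe set the pairs differed in sign within both lines, at 0.19 and -0.27 in ARP1 and 0.39 and -0.14 in JJN3.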

How the results depend on the processing

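The 8 called effects of the 9-gene set kept their sign in every alternative run, at -0.52 to -0.29 for FAS and 0.57 to 0.63 for SESN2 with CPI203, and at -0.47 to -0.37 for FAS and 0.37 to 0.82 for TP53INP1 with LenDex. Under Combo they spanned -0.99 to -0.73 for FAS, 1.26 to 1.81 for SESN1, 0.65 to 0.80 for SESN2 and 0.41 to 0.85 for TP53INP1. The counts of genes called moved more. With no replicate block for the line, 0 were called in the CPI203 average, the LenDex average and Combo, and 0 with JJN3 and RPMI-8226 arrays averaged; of all 15173 genes the first fit called 0, 1 and 3 and the second 0, 4 and 3, so these zeros follow the calls over all genes. Leaving out 1 line gave 0 to 5 for CPI203, 0 to 2 for LenDex, 0 to 7 for Combo, 0 to 3 for CPI203 alone and 0 for LenDex alone. Over all genes the shares in these fits reached 15.8%, 6.05%, 14.6%, 6.69% and 1.96%, each without ARP1. The CPI203 count was 1 with the median of probe sets and 1 without the JJN3 control array, where 6.63% and 0.778% of all genes were called. The LenDex count was 1 with cyclic loess and 1 without that array, where 4.12% and 1.56% were called. Combo called 0 when only its own arrays and the control arrays were fitted, and 2 of all genes were called. With trended robust moderation CPI203 alone and LenDex alone called 1 each, where 2.09% and 1.89% of all genes were called. A mean level of at least 6 gave 1 for LenDex alone, where 1.63% were called. The line difference for CPI203 called 1 with no level filter (TNFRSF10B), 2 at a mean level of at least 6 (with SESN1) and 4 with trended robust moderation (with GADD45A and MDM2 too), which called 1 for LenDex (SESN1). Of all genes these CPI203 tests called 0.313%, 0.987% and 4.44%, and that LenDex test 3.1%. Signs turned only in effects that were not called at the settings used throughout. For TP53INP1 the CPI203 average was -0.0302 with loess and -0.0575 without ARP1, and CPI203 alone was -0.13 without ARP1. The MDM2 LenDex average was -0.13 without JJN3, -0.0629 with averaged arrays and -0.12 without the JJN3 control array, and LenDex alone was 0.47 with the probe set median, 0.0055 with loess and 0.19 without ARP1. The ZMAT3 LenDex average was -0.0147 with the probe set median, -0.0988 without JJN3 and -0.0407 with averaged arrays, LenDex alone was 0.0375 with loess and 0.17 without ARP1, and Combo was 0.0681 without ARP1. TNFRSF10B under Combo was -0.081 without RPMI-8226 and -0.0144 with averaged arrays. CDKN1A with CPI203 was -0.0586 without JJN3, -0.16 without RPMI-8226 and -0.11 with averaged arrays. The causes were not tested. Fits on fewer arrays also have fewer residual degrees of freedom, and the part of this was not tested either. A CPI203-by-LenDex term in the line model, and the alternatives for the wider lists and their named genes, were added after seeing the data.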
